A study of Mus musculus with 8 samples.

Results

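Mitochondrial ribosomal proteins are encoded in the nucleus, made in the cytosol and imported into mitochondria, where they assemble with mitochondrial ribosomal RNA into a small and a large subunit. Their ribosome translates the few mRNAs of the mitochondrial genome, all of which encode membrane subunits of the respiratory chain and of ATP synthase. The genes are named Mrpl or Mrps, and here they were chosen by name alone, as the genes whose platform symbol starts with Mrpl or Mrps followed by a digit. Of the 18193 genes measured by a probe set that names 1 gene, 76 were members, 47 named Mrpl and 29 named Mrps. The symbols Mrpl30 and Mrpl53 also match the name, but lay only on probe sets that name several genes and were left out. Where a member had several probe sets (42 of 76), the brightest by its mean over the 8 arrays stood for it. By current knowledge of the structure, 49 members belong to the large subunit, among them Mrps18a and Mrps30 in spite of their names, and 26 to the small subunit. Mrps36 was named as a ribosomal protein and later assigned to the 2-oxoglutarate dehydrogenase complex. The members lie on 17 chromosomes, and all 76 had a mean level above the median gene of these arrays.

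The cells were mouse thymocytes at the DN3 stage (Lin- CD44- CD25+), the stage at which the T cell receptor beta chain gene is rearranged and at which survival and growth depend on Notch signals. Wild-type (WT) and IkL/L cells were compared, the latter called Ikaros deficient by the title of the series. Lineage-negative thymocytes of both genotypes were cultured on OP9 DL1 cells, a stromal line that presents the Notch ligand Delta-like 1. They received for 16 h either the gamma secretase inhibitor MRK-003 (GSI; the labels give 5 mM) or its vehicle DMSO, and DN3 cells were then sorted. GSI prevents the cleavage that releases the active intracellular part of Notch. Each of the 4 groups, WT or IkL/L cells under DMSO or GSI, had 2 Affymetrix arrays. The labels give neither the age of the mice nor whether arrays 1 and 2 of a group stand for different mice or cultures. The p-values therefore cover no more than the spread between these arrays, which may be technical. RNA was labelled in a 2-cycle reaction from 15 to 100 ng, and the labels do not say which array had which amount.

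Several measures of the arrays moved with the groups. Markers of DN3 cells were high, with 10 of 10 measured markers above the median gene and array means of 10.83 to 11.38 on the log2 scale, against array medians of 5.25 to 5.33. Of these markers 2 fell under GSI in both genotypes. Il2ra, which encodes CD25, the surface marker of the sort, fell by 2.27 log2 units (SE 0.11, limma adjusted p = 7.16e-05), from between 11.57 and 12.03 to between 9.42 and 9.73. Ptcra, which encodes the pre-T cell receptor alpha chain, fell by 1.99 (SE 0.11, adjusted p = 0.000119). In IkL/L cells Rag1 and Rag2 rose, by 0.88 and 0.73. The GAPDH control probe sets at the 3' end of the transcript exceeded those at the 5' end by 1.71, 2.12, 1.87 and 2.47 log2 units on the DMSO arrays (WT 1 and 2, then IkL/L 1 and 2). On the GSI arrays, in the same order, the difference was 2.20, 3.08, 3.09 and 3.03. This difference, a common measure of RNA length in the labelled sample, was thus larger under GSI, and only WT GSI array 1 lay within the range of the DMSO arrays. Of 18 measured stromal markers 12 lay above the median gene, with array means of 6.24 to 7.98, and of 15 myeloid markers 6 did, with array means of 5.04 to 5.71 except in IkL/L cells under GSI (6.73 and 6.67). Of the B lineage, natural killer or innate lymphoid, and erythroid markers 3 of 8, 2 of 8 and 0 of 5 lay above it. The part of these cells in the results below was not tested, except where a value is given.

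RefSeq promoter sequences of mouse build GRCm38.p6 could be matched to 67 members, in 73 windows that run from 250 bases before to 50 bases after a start site. They were searched on both strands for motifs of factors known to act at genes of mitochondria or of growth. Of the member windows, 34.2% (25 of 73) held the ETS motif CCGGAAG, compared with 13.0% of the windows of all genes on the array and 8.86% of all windows in the table. The motif AAGATGGCG of YY1, a zinc finger factor, was in 11.0% (8 of 73), compared with 2.1% and 1.4%. The core GCATGCGC of NRF1, a regulator of nuclear genes for mitochondria, was in 11.0% (8 of 73), compared with 4.05% and 2.71%. The E-box CACGTG, which Myc and related factors bind, was in 9.59% (7 of 73, from 5 genes, since 3 are windows of Mrpl2), close to 8.74% and 7.15%. The motif TGGGAA, the core bound by RBPJ, the DNA-binding partner of Notch, was in 27.4%, compared with 24.2% and 25.6%, and TATAAA was in 6.85%, compared with 9.76% and 13.6%. No matches of different motifs overlapped in the member windows. Member windows held a median of 21.0 CpG dinucleotides against 16.0 in the windows of genes on the array, at a similar GC content (58.7% and 58.3%). These shares are descriptions with no test, and a match is not evidence of binding.

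The sequences below run from 120 bases before to 30 bases after the start site, 5' to 3' on the gene's strand, with matches to the ETS, YY1, NRF1 and E-box motifs in capitals and all other bases in lower case. They are shown because they hold these motifs in members with different responses. Mrpl17, Mrpl36 and Mrpl20 fell under GSI and hold the NRF1 core or the E-box. The windows of Mrps18b (NRF1 core), Mrpl37 and Mrps18c (E-box) hold them too, and these genes fell. They are not shown, and their matches do not lie wholly within the printed bases. Mrps27 and Mrps18a also fell and hold both the ETS and the YY1 motif, and Mrpl43 and Mrpl9 are members with the highest log2 differences, neither of which passed the test. Mrps27 and Mrps18a were added after the values were seen.
Mrpl17 (chr7:105811058-105811207, minus strand): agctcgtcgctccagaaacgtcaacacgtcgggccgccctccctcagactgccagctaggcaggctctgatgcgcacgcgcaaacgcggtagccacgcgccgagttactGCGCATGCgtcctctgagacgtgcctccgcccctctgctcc
Mrpl36 (chr13:73330889-73331038, plus strand): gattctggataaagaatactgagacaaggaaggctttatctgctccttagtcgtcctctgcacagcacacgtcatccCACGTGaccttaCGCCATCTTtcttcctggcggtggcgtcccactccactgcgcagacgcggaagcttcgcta
Mrpl20 (chr4:155802758-155802907, plus strand): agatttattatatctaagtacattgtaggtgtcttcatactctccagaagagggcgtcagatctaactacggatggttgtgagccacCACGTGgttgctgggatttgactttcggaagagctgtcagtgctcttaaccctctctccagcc
Mrps27 (chr13:99344666-99344815, plus strand): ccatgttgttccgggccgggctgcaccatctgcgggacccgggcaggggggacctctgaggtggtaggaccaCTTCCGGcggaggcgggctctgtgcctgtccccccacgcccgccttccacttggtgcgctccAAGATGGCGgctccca
Mrps18a (chr17:46110884-46111033, plus strand): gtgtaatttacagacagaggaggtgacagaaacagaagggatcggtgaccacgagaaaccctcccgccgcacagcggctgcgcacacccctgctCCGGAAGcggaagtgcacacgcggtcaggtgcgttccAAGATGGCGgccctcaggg
Mrpl9 (chr3:94443216-94443365, plus strand): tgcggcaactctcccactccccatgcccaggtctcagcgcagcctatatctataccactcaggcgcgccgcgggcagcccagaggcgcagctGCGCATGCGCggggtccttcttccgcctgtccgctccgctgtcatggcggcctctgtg
Mrpl43 (chr19:45006413-45006562, minus strand): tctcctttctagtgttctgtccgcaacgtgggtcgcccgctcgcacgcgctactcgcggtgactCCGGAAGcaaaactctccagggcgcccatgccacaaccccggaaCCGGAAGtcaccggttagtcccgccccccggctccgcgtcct
In Mrpl36 the E-box starts 43 bases and the YY1 motif 31 bases before the start site, and in Mrps27 and Mrps18a the YY1 motif lies just after it, at base 15 and base 12. In Mrpl9 the capitals cover a match to the NRF1 core on each strand. Counted by gene, the YY1 motif was in 8 of the 33 matched members that fell under GSI (24.2%) and in 0 of the 34 that did not pass (0.0%). The 8 genes were Mrpl42, Mrpl36, Mrps27, Mrpl37, Mrps24, Mrps18a, Mrps11 and Mrpl35. The ETS motif ran the other way, in 9 of 33 (27.3%) and 16 of 34 (47.1%), as did the NRF1 core, in 2 of 33 (6.06%) and 6 of 34 (17.6%). The E-box was in 4 of 33 (12.1%) and in 1 of 34 (2.94%), Mrpl2. The RBPJ motif was in 7 of 33 (21.2%) and 13 of 34 (38.2%), and TATAAA in 3 of 33 (9.09%) and 2 of 34 (5.88%). Of all genes on the array 2.54% held the YY1 motif, 15.0% the ETS motif and 4.7% the NRF1 core. The E-box was in 10.3% of them, the RBPJ motif in 27.6% and TATAAA in 11.5%. None of these differences was tested.

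Many mitochondrial ribosomal protein genes were lower after GSI, and none passed the test as higher. Averaged over both genotypes, 37 of the 76 members fell, 0 rose and 39 did not pass (limma, Benjamini-Hochberg adjusted p below 0.05 over all 18193 genes). The share that fell was 48.7%, while 12.5% of all genes were called lower and 10.8% higher in the same test. All 76 members lay above the median gene. With only genes above the median level in the fit, 41 of the 76 fell, beside 24.3% of those genes called lower and 20.4% higher. The median log2 difference of the members was -0.51, with the middle 50% between -0.76 and -0.26 and a range from -1.63 to 0.26, and the median over all genes was -0.00. The difference was below 0 in 66 members and above 0 in 10, and 14 of the 37 fell at least 2-fold (18.4% of the members, against 4.46% of all genes). In 37 members (48.7%) both GSI arrays lay below both DMSO arrays in each genotype, an arrangement found in 15.6% of all genes. In sorted cells measured in bulk, fewer cells that express a gene and less of its RNA per cell cannot be told apart.

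**Figure D1:**
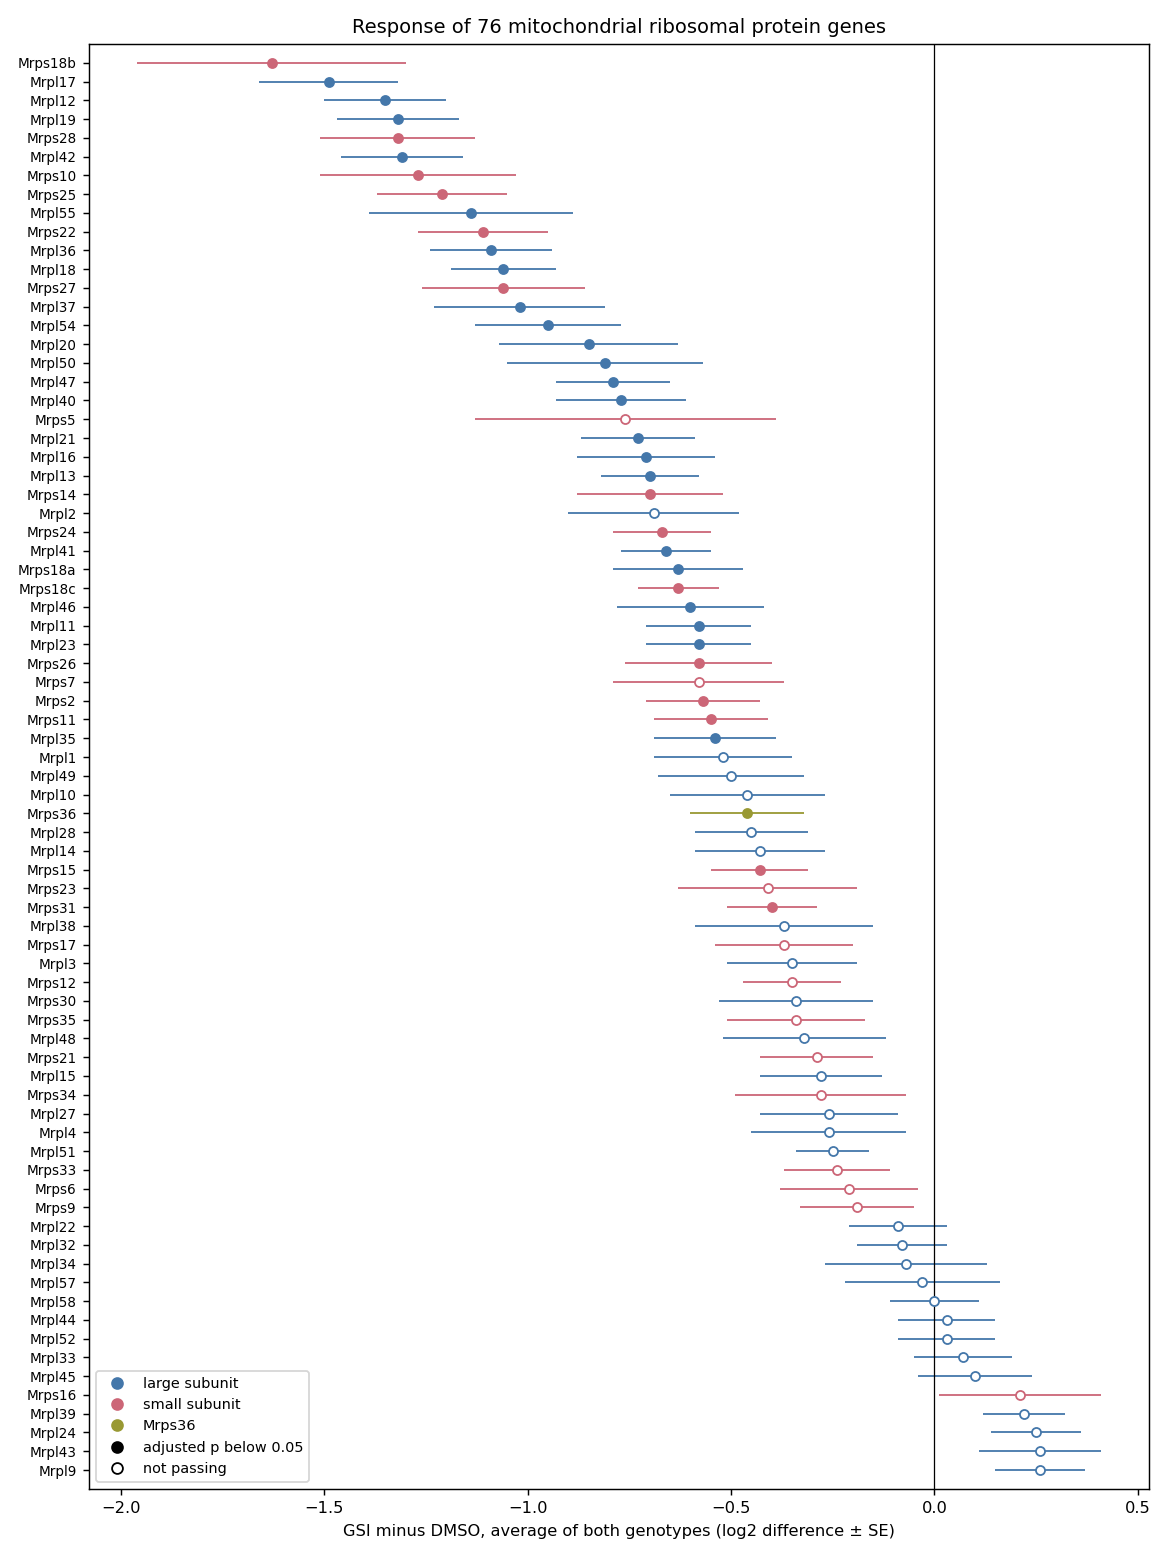
The log2 difference between GSI and DMSO (horizontal axis, averaged over both genotypes, points with bars of 1 SE) for each of the 76 members, coloured by subunit. Filled points are the 37 members with adjusted p below 0.05, all to the left of 0, and the open points include all 10 members above 0.

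The largest decrease was that of Mrps18b, 1 of 3 mammalian relatives of the bacterial protein S18. Its log2 level was 10.04 and 8.83 under DMSO against 8.58 and 7.40 under GSI in WT cells (arrays 1 and 2), and 10.06 and 9.53 against 7.87 and 8.07 in IkL/L cells. The groups did not overlap within a genotype, but the WT arrays differed among themselves by more than 1 log2 unit. The average difference was -1.63 ± 0.33 (SE), a 3.10-fold decrease (limma adjusted p = 0.00894).

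Mrpl17, a homologue of bacterial L17 in the large subunit, read 9.54 and 9.20 under DMSO against 8.54 and 7.94 under GSI in WT cells, and 9.77 and 9.66 against 7.95 and 7.79 in IkL/L cells. All 4 GSI arrays lay below all 4 DMSO arrays, by 2.80-fold on average (log2 difference -1.49 ± 0.17, limma adjusted p = 0.000737). Mrpl12, the relative of the bacterial stalk protein L7/L12 that recruits translation factors, read 10.22 and 9.91 under DMSO and 9.20 and 8.82 under GSI in WT cells. In IkL/L it read 10.51 and 10.23 under DMSO and 8.66 and 8.80 under GSI. Its arrays also separated completely by treatment, with a 2.55-fold decrease (-1.35 ± 0.15, adjusted p = 0.000649). Mrpl19, a homologue of L19, went from 9.97 and 9.68 to 8.80 and 8.36 in WT and from 10.02 and 9.72 to 8.45 and 8.51 in IkL/L. It decreased 2.49-fold (-1.32 ± 0.15, adjusted p = 0.000806), with no overlap between the treatments.

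Mrps28, a small subunit protein, read 9.70 and 9.11 under DMSO against 8.54 and 8.00 under GSI in WT cells, and 9.96 and 9.62 against 8.22 and 8.36 in IkL/L cells, a 2.50-fold decrease (-1.32 ± 0.19, limma adjusted p = 0.00199). Mrpl42, a large subunit protein with no bacterial counterpart, read 11.07 and 10.74, then 9.96 and 9.48 in WT, and 11.24 and 10.89, then 9.66 and 9.59 in IkL/L, a 2.48-fold decrease (-1.31 ± 0.15, adjusted p = 0.000814). In both genes every GSI array was below every DMSO array. Mrps10, a homologue of S10, read 9.51 and 8.77 under DMSO against 8.51 and 7.67 under GSI in WT cells, and 9.69 and 9.32 against 7.93 and 8.08 in IkL/L cells (-1.27 ± 0.24, adjusted p = 0.00628). As in Mrps18b, array 1 of each WT group was well above array 2.

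Mrps25 and Mrps22 are small subunit proteins without bacterial counterparts, and Mrpl55 is a protein of the large subunit. Mrps25 went from 9.48 and 9.06 to 8.44 and 8.11 in WT and from 9.90 and 9.54 to 8.40 and 8.20 in IkL/L (-1.21 ± 0.16, adjusted p = 0.00152). Mrpl55 went from 8.90 and 8.32 to 8.24 and 7.23 in WT and from 8.94 and 8.48 to 7.27 and 7.35 in IkL/L (-1.14 ± 0.25, adjusted p = 0.0124). Mrps22 went from 10.08 and 9.69 to 9.08 and 8.61 in WT and from 10.21 and 9.90 to 8.95 and 8.82 in IkL/L (-1.11 ± 0.16, adjusted p = 0.00211). The nearest WT arrays of Mrpl55 read 8.32 under DMSO and 8.24 under GSI, while the arrays of Mrps25 and Mrps22 separated completely by treatment.

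**Figure D2:**
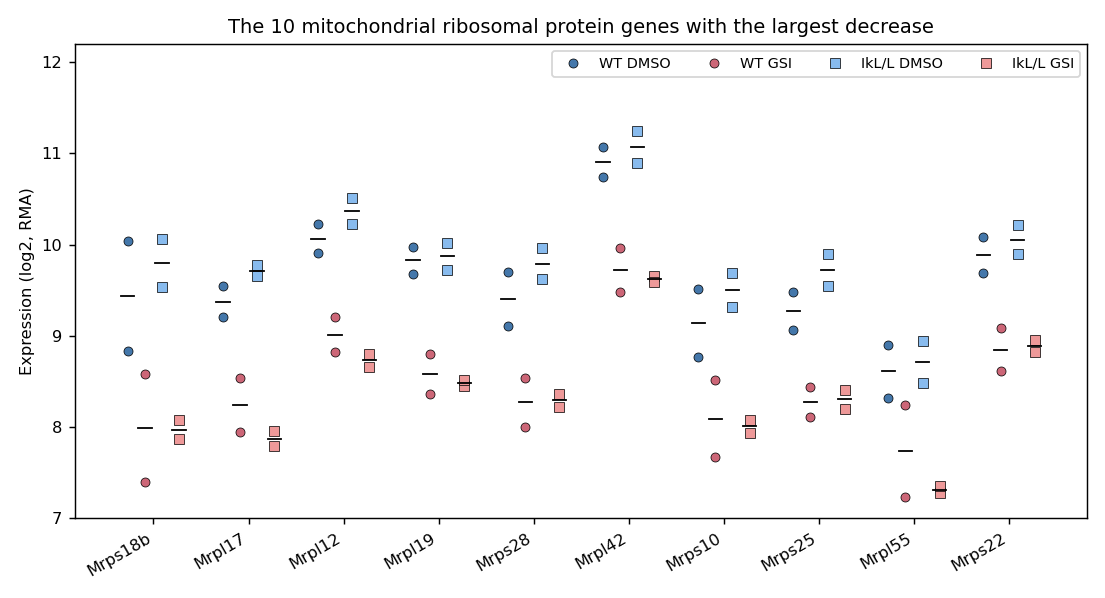
Deposited log2 levels of the 10 members with the largest average decrease on each of the 8 arrays (points) with the mean of each group of 2 (dashes). Within each genotype both GSI arrays lie below both DMSO arrays for all 10 genes, and the spread between the WT arrays is widest for Mrps18b.

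At the other end, the 5 highest members were Mrpl9, Mrpl43, Mrpl24, Mrpl39 and Mrps16, and none passed the test. Mrpl9 differed by 0.26 ± 0.11 (limma adjusted p = 0.156). Its log2 level was 10.80 and 10.49 under DMSO against 10.89 and 10.86 under GSI in WT cells, and 10.50 and 10.66 against 10.77 and 10.97 in IkL/L cells, so that the GSI arrays were the higher ones in each genotype. Mrpl43 read 9.19 and 9.11, then 9.53 and 9.50 in WT, and 9.41 and 9.30, then 9.21 and 9.81 in IkL/L, where the treatments overlapped (0.26 ± 0.15, adjusted p = 0.295). Mrpl24 read 11.91 and 11.86, then 12.19 and 11.82 in WT, and 11.79 and 11.65, then 11.96 and 12.25 in IkL/L (0.25 ± 0.11, adjusted p = 0.151). It overlapped between treatments in WT but not in IkL/L. The log2 difference was 0.22 ± 0.10 for Mrpl39 (adjusted p = 0.155) and 0.21 ± 0.20 for Mrps16 (adjusted p = 0.522). The members nearest to 0 were Mrpl58, a ribosome-bound peptidyl-tRNA hydrolase (0.00), Mrpl57 (-0.03) and Mrpl44 (0.03). Mrpl58 read 11.06 and 10.99 under DMSO against 11.25 and 10.98 under GSI in WT cells, and 11.33 and 11.22 against 11.05 and 11.31 in IkL/L cells, with overlapping treatments in both genotypes. Mrpl2, with an adjusted p of 0.050 just above the threshold, was counted among the members that did not pass.

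Both subunits held members that fell, in a test that called 12.5% of all genes lower and 10.8% higher. In the large subunit 22 of 49 fell (median log2 difference -0.50) and in the small subunit 14 of 26 (median -0.56), beside Mrps36. Of the members listed with a bacterial homologue 21 of 44 fell (median -0.54), and of those listed without 15 of 31 (median -0.41). Of the relatives of bacterial S18, that list counts Mrps18c as a homologue, but places Mrps18a and Mrps18b among those without. Placements in the list, such as that of Mrpl55 among those without, were not checked against sequences or structures, and the counts depend on them. These counts were not tested against each other. The 3 relatives of bacterial S18 all fell, although to different degrees. Mrps18a, in the large subunit, changed by -0.63 ± 0.16 (adjusted p = 0.0254) and Mrps18c by -0.63 ± 0.10 (adjusted p = 0.00279), compared with -1.63 for Mrps18b. Mrps18c read 11.15 and 11.16, then 10.60 and 10.51 in WT, and 11.29 and 11.05, then 10.48 and 10.53 in IkL/L, with no overlap between the treatments. Mrps12, a homologue of S12 at the decoding centre, read 9.68 and 9.49 under DMSO against 9.34 and 9.36 under GSI in WT cells, and 9.82 and 9.66 against 9.22 and 9.32 in IkL/L cells. It did not pass (-0.35 ± 0.12, adjusted p = 0.0651), although its GSI arrays all lay below its DMSO arrays. Mrps30 did not pass either (-0.34 ± 0.19, adjusted p = 0.259), and its WT arrays overlapped. Mrps36 fell by 0.46 log2 units (SE 0.14, adjusted p = 0.0427).

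The GAPDH difference of the arrays moved with these levels. The mean over the 76 members was 9.93, 9.58, 10.01 and 9.75 on the DMSO arrays (WT 1 and 2, IkL/L 1 and 2) and 9.53, 9.15, 9.13 and 9.32 on the GSI arrays. In each group of 2 the array with the smaller GAPDH difference had the higher member mean. Array 1 exceeded array 2 in 71 of 76 members in WT DMSO, in 69 in WT GSI and in 71 in IkL/L DMSO, but in only 14 in IkL/L GSI, where array 2 had the smaller GAPDH difference. As shares these were 93.4%, 90.8%, 93.4% and 18.4%, beside 63.5%, 62.2%, 61.5% and 40.1% of all genes. With the GAPDH difference as a covariate in the fit, 11 of the 76 members fell (all among the 37) and 2, Mrpl24 and Mrps16, rose, while 7.90% of all genes were called lower and 12.3% higher. The median of the members was then -0.12, and 45 were below 0. The 11 were Mrpl12, Mrpl17, Mrpl18, Mrpl19, Mrpl36, Mrpl41, Mrpl42, Mrps18c, Mrps22, Mrps25 and Mrps28. Mrpl17 remained at -1.05 (limma adjusted p = 0.00566) and Mrpl12 at -0.96 (adjusted p = 0.00408). Mrps18b was at -0.49 (adjusted p = 0.251), Mrps10 at -0.49 (adjusted p = 0.143) and Mrpl55 at -0.27 (adjusted p = 0.381), and these no longer passed. Because the GAPDH difference was itself larger under GSI, the parts of RNA length and of treatment cannot be told apart fully in these 8 arrays.

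**Figure D3:**
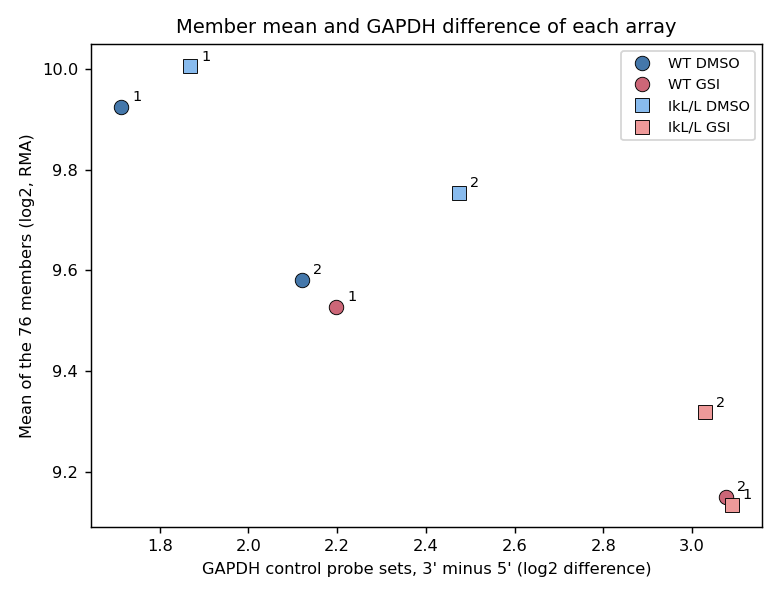
Mean log2 level of the 76 members on each array (vertical axis) against the log2 difference between 3' and 5' GAPDH control probe sets (horizontal axis), with replicate numbers beside the points. The 4 GSI arrays include the 3 with the largest GAPDH difference, above 3, and the lowest member means, from 9.13 to 9.32.

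The genotypes share no arrays, so their responses could be set side by side. Their calls are not independent, since both rest on the spread pooled over all 8 arrays. In WT cells 9 members fell (11.8%) and 0 rose, against 4.16% and 2.31% of all genes, and the median log2 difference was -0.39 (0.04 over all genes). In IkL/L cells 26 fell (34.2%) and 0 rose, against 9.09% and 7.7% of all genes, and the median was -0.64 (-0.05 over all genes). At an unadjusted p under 0.05 in either direction the counts of members were 25 (32.9%) and 46 (60.5%), against 21.1% and 29.8% of all genes. All 9 members that fell in WT also fell in IkL/L, which is 100% of the WT list and 34.6% of the IkL/L list. They were Mrpl12, Mrpl17, Mrpl18, Mrpl19, Mrpl42, Mrps18c, Mrps22, Mrps25 and Mrps28. In WT the largest decrease that passed was that of Mrpl19 (-1.24 ± 0.22, limma adjusted p = 0.0192), followed by Mrpl42 (-1.18 ± 0.22, adjusted p = 0.0214), Mrps28 (-1.14 ± 0.27, adjusted p = 0.0467) and Mrpl17 (-1.13 ± 0.24, adjusted p = 0.0322). Mrps18b had the lowest WT value, -1.44 ± 0.47, and did not pass (adjusted p = 0.122). In IkL/L the largest decreases were those of Mrpl17 (-1.84 ± 0.24, adjusted p = 0.00227), Mrps18b (-1.83 ± 0.47, adjusted p = 0.0327) and Mrpl12 (-1.64 ± 0.21, adjusted p = 0.00213). Mrps28 (-1.50 ± 0.27) and Mrps10 (-1.49 ± 0.34) followed. The highest values that did not pass were those of Mrps16 (0.37), Mrpl43 (0.36) and Mrpl39 (0.26) in WT and of Mrpl24 (0.39), Mrpl9 (0.29) and Mrpl39 (0.18) in IkL/L. The WT count depended on single arrays, with 0 members without WT DMSO array 1, WT DMSO array 2 or WT GSI array 2 and 13 without WT GSI array 1. Leaving out any IkL/L array lowered it as well, to shares of the members near those of all genes called lower. The WT median of the members stayed at -0.39 in these fits. The WT median ranged from -0.18 without WT GSI array 2 to -0.56 without WT GSI array 1. The IkL/L count was 4 without IkL/L DMSO array 1, 11 without IkL/L DMSO array 2, 8 without IkL/L GSI array 1 and 7 without IkL/L GSI array 2. For the average the count was 21 without IkL/L DMSO array 1, 23 without IkL/L GSI array 1 and 24 without WT DMSO array 1. In each of these fits without a single array, the share of all genes called lower moved in the same direction as the count of members. With the GAPDH covariate 4 members fell in WT (5.26%, close to the 4.92% of all genes), with a median of -0.04 and 41 of 76 below 0. In IkL/L 10 fell with it (13.2%, against 6.79% of all genes), with a median of -0.17 and 51 below 0. With the mean stromal marker level of each array as the covariate 28 fell in WT and 46 in IkL/L, and 9.96% and 15.3% of all genes were called lower.

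The test of the difference between the genotypes' responses called 0 members, and 0 passed an unadjusted p under 0.05 (limma; 0.044% of all genes, 8 genes, were called and 1089 had an unadjusted p under 0.05). The response in IkL/L was below that in WT in 72 of the 76 members, by a median of 0.23 log2 units (log2 difference of differences -0.23), compared with 10802 of 18193 genes and a median of -0.06. Single arrays moved this value. It was -0.06 (49 of 76 members below 0) without WT GSI array 1, -0.08 (52) without WT DMSO array 2, -0.11 (55) without IkL/L DMSO array 1 and -0.14 (58) without IkL/L GSI array 1. It was -0.44 without WT GSI array 2 and -0.41 without WT DMSO array 1. Members and their arrays are not independent, and no count of signs was tested. The smallest p-values belonged to Mrpl17 (-0.71 ± 0.34, adjusted p = 0.853), Mrpl36 (-0.62 ± 0.30, adjusted p = 0.855) and Mrpl12 (-0.58 ± 0.30, adjusted p = 0.858), and none passed. Mrpl36, a homologue of bacterial L36, read 8.96 and 8.68 under DMSO against 8.19 and 7.88 under GSI in WT cells, and 8.99 and 8.88 against 7.70 and 7.38 in IkL/L cells. The order of the members was alike in both genotypes (Pearson's r = 0.94 and Spearman's rho = 0.94 across the 76 members, 0.84 and 0.72 across all genes). These are descriptions across genes measured on the same arrays. The value was below 0 in both genotypes for 63 members, above 0 in both for 7 and of opposite sign for 6.

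**Figure D4:**
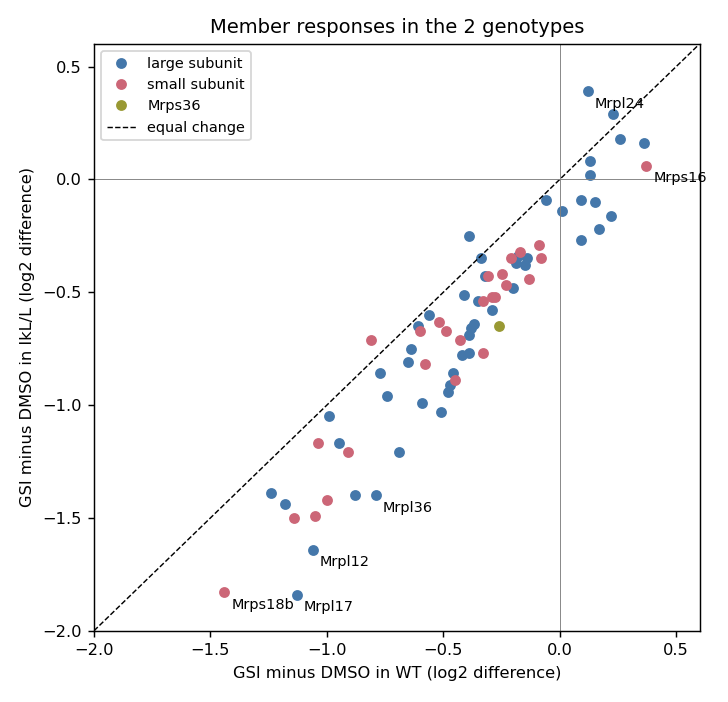
Log2 difference between GSI and DMSO in WT (horizontal axis) and in IkL/L (vertical axis), a point for each of the 76 members, coloured by subunit, with the line of equal change dashed. Of the 76 points 72 lie below the line, 49 without WT GSI array 1, and the test of the difference called none of them.

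The genotypes were also compared within each treatment. Under DMSO, limma called 0 members between IkL/L and WT, against 1.74% of all genes, and 2 had an unadjusted p under 0.05 (1854 of all genes). The IkL/L value was the higher in 61 members, with a median log2 difference of 0.13 (0.03 over all genes). This direction was not kept without WT DMSO array 2 (49 of 76 below 0, median -0.03) or without IkL/L DMSO array 1 (38 below 0, median -0.00). The median was 0.04 with the stromal covariate, 0.28 without WT DMSO array 1, 0.25 without IkL/L DMSO array 2 and 0.23 with the GAPDH covariate. In 16 members (21.1%) both IkL/L arrays lay above both WT arrays, close to the 22.4% of all genes. The smallest p belonged to Mrpl52, a large subunit protein, with 10.33 and 10.13 in WT and 10.79 and 10.95 in IkL/L (0.64 ± 0.18, limma adjusted p = 0.169). Mrpl51 read 11.26 and 11.15 in WT and 11.53 and 11.56 in IkL/L (0.34 ± 0.13, adjusted p = 0.403), and Mrpl32 was lower in IkL/L (-0.32 ± 0.16, adjusted p = 0.618). None of the 3 passed. Under GSI, limma called 0 members, against 1.46% of all genes, and 1 had an unadjusted p under 0.05 (1946 of all genes). The IkL/L value was the lower in 57 members, with a median log2 difference of -0.10 (-0.04 over all genes). The direction turned with the GAPDH covariate (24 of 76 below 0, median 0.05) and without WT GSI array 1 (33 below 0, median 0.02). The median was -0.01 without IkL/L GSI array 1, -0.28 without WT GSI array 2, -0.22 without IkL/L GSI array 2 and -0.21 with the stromal covariate. Both IkL/L arrays lay below both WT arrays in 14 members (18.4%, against 23.1% of all genes) and above them in 3 (3.95%, against 14.0%). The smallest p-values were those of Mrpl36 (-0.50 ± 0.21, adjusted p = 0.449), Mrps6 (-0.52 ± 0.24, adjusted p = 0.507) and Mrpl33 (-0.35 ± 0.16, adjusted p = 0.513), none of which passed.

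Other probe sets of the same genes gave a second reading from the same arrays. The 42 members with several probe sets had 80 more, of which 57 had the same sign as the reported one, 20 (25%) were called lower and 0 higher in the average over genotypes. Of all 34945 probe sets in that fit 11.4% were called lower and 7.79% higher. Of the 46 whose level was above the median gene, 35 had the same sign and 16 were called lower. The share of all probe sets above that level was not counted. In the fit of only genes above the median level, 24.3% of genes were called lower. Of the 39 members that did not pass, 8 had another probe set that was called lower, namely Mrpl1, Mrpl15, Mrpl28, Mrpl38, Mrpl49, Mrpl51, Mrpl52 and Mrps5. For Mrpl52 the reported probe set gave 0.03 and another gave -0.64 ± 0.16 (limma adjusted p = 0.0309 with every probe set as a feature). For Mrpl15 the reported probe set gave -0.28, and 2 others gave -1.01 ± 0.25 and -0.90 ± 0.15. In Mrps9 a probe set at 0.42 ± 0.26 stood against 3 others below 0. For Mrpl44 the reported probe set gave 0.03, and others gave -0.57 ± 0.24, -0.63 ± 0.33 and -0.01 ± 0.13. Mrpl39 (0.22 reported) had another at -0.27 ± 0.13, and Mrpl9 (0.26 reported) had others at 0.14 ± 0.17 and -0.39 ± 0.19. No probe set of Mrpl44, Mrpl39 or Mrpl9 passed. Probe sets can read different transcript ends, and which of these readings stands for the main transcript was not tested.

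Genes with related tasks were read from lists, by their counts in the average over genotypes. In that test 12.5% of all genes were called lower and 10.8% higher. Of the mitochondrial ribosomal proteins that carry other names, 4 of 5 were measured and 3 fell. They were Ptcd3 (-0.78 ± 0.13, limma adjusted p = 0.00369), Dap3 (-0.72 ± 0.16, adjusted p = 0.0149) and Chchd1 (-0.68 ± 0.14, adjusted p = 0.0102), and Gadd45gip1 did not pass (-0.55 ± 0.18, adjusted p = 0.0606). Dap3, a GTP-binding protein of the small subunit, read 11.16 and 10.84, then 10.58 and 9.87 in WT, and 11.14 and 11.02, then 10.44 and 10.38 in IkL/L, with no overlap between treatments. Of 23 factors that assemble the mitochondrial ribosome, 7 fell and 0 rose (median -0.23). Among them were Fastkd2, an RNA-binding protein of mitochondrial RNA granules (-1.04 ± 0.14), the GTPase Gtpbp10 (-0.83 ± 0.13), Rcc1l (-1.32 ± 0.28) and Tfb1m, which methylates the small ribosomal RNA (-0.60 ± 0.13). Of 11 measured mitochondrial translation factors (13 listed), 4 fell and 0 rose (median -0.41). These were the elongation factors Tsfm (-1.55 ± 0.19, adjusted p = 0.00102) and Gfm1 (-1.18 ± 0.17, adjusted p = 0.00181), the formyltransferase Mtfmt (-0.52 ± 0.13) and the GTPase Guf1 (-0.41 ± 0.12). Tsfm read 8.66 and 8.24 under DMSO against 7.58 and 6.86 under GSI in WT cells, and 8.62 and 8.71 against 6.91 and 6.68 in IkL/L cells.

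Of 20 measured factors of mitochondrial transcription and of its nuclear control (21 listed), 8 fell and 0 rose (median -0.36), beside 12.5% and 10.8% of all genes. Pprc1, a coactivator related to PGC-1, fell by 2.24 log2 units (SE 0.16, limma adjusted p = 0.000213). It read 9.03 and 9.18 under DMSO against 7.06 and 7.45 under GSI in WT cells, and 10.01 and 9.84 against 7.55 and 7.06 in IkL/L cells. Here array 2 was not uniformly the lower one. Myc fell by 2.57 log2 units (SE 0.40, adjusted p = 0.00279), from 10.79 and 10.48 to 9.49 and 8.57 in WT and from 10.79 and 10.50 to 8.09 and 6.14 in IkL/L. Lrpprc, which stabilises mitochondrial mRNAs, fell by 1.24 (SE 0.13, adjusted p = 0.000521) and Tfam, which packages mitochondrial DNA and starts its transcription, by 0.96 (SE 0.13, adjusted p = 0.00129). Polrmt, the mitochondrial RNA polymerase (-0.33 ± 0.13, adjusted p = 0.12), and Nrf1 (0.14 ± 0.23, adjusted p = 0.731) did not pass. The Nrf1 value turned to -0.63 with the GAPDH covariate, where it passed as lower.

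For comparison, 6 of 46 cytosolic ribosomal protein genes fell and 4 rose (median -0.01). Of 70 genes for the respiratory chain and ATP synthase 29 fell and 1 rose (median -0.30). Of all genes 12.5% were called lower and 10.8% higher. The 46 were chosen by symbol and include relatives such as Rpl3l and Rpl39l. The mitochondrial ribosomal proteins, with 37 of 76 and a median of -0.51, thus had a lower median than either list. The difference between the lists was not tested.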

How the data were processed

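Expression was measured in 8 samples on Affymetrix mouse arrays. The deposited values are log2 values that the authors made with RMA, per the submitters' processing notes; the version is not given in the sources used here. They were used as deposited. Probe sets were named through the platform annotation: of 45101, 64 controls, 932 naming several genes and 9160 with no listed gene were left out. For each of the 18193 genes the probe set with the highest mean was kept, with no filter on dim probe sets.

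Groups came from the sample titles. A linear model with a mean for each of the 4 groups was fitted to all 8 arrays in limma 3.58.1 (R 4.3.3), and contrasts were moderated by eBayes, allowing a trend (4 residual and 4.11 prior degrees of freedom). Tests were two-sided, with p-values adjusted by Benjamini-Hochberg over all genes and a threshold of 0.05. The fit was tested on simulated data. The SE is the moderated one, and the number of arrays limits the precision. Differences are relative to each array's overall distribution.

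The members and lists were chosen with earlier results of these data known. Among members, the text names the 10 lowest and 5 highest averages, the 5 lowest and 3 highest in each genotype, the 3 smallest p-values where fewer than 3 were called, the 3 nearest 0, Mrpl12, Mrps12, Mrps18a to c, Mrps30 and Mrps36, members at the ends of a range and members whose probe sets disagree. Of other lists it names up to 4 genes with the smallest p, with Myc, Tfam, Polrmt and Nrf1 always. Subunits and bacterial homologues follow textbook knowledge. Alternatives changed the probe set rule, filter, scaling, spread, arrays and covariates. Motifs were searched in RefSeq windows (GRCm38.p6).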

Additional observations from a re-analysis of the deposited data

How the results depend on the processing

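Most counts of members moved with the alternatives, and the direction of the median difference between genotypes turned under DMSO without WT DMSO array 2 and under GSI with the GAPDH covariate, without WT GSI array 1 and without both WT arrays numbered 1 (33 of 76 members below 0). The 37 members that fell in the average became 11 with the GAPDH covariate, 14 when a 2-fold change was also asked for and 21 to 41 when single arrays were left out, and 2 members rose with the GAPDH covariate and 0 to 1 without single arrays (Mrpl24, without WT GSI array 2). With the replicate number as a block 42 fell in the average, beside 14.5% of all genes called lower. The count given next for every probe set as a feature is a count of probe sets, not of members. The members had 156 probe sets, so this count cannot be set against the 9 members. The 9 that fell in WT became 16 with the replicate block, 3 with the mean over probe sets, 4 with every probe set as a feature, 0 with only the arrays compared, 3 without both WT arrays numbered 1, 4 with the GAPDH covariate, 28 with the stromal covariate and 0 to 13 without single arrays; 1 rose with the GAPDH covariate. The 26 in IkL/L became 40 with only the arrays compared, 40 without both WT arrays numbered 1, 10 with the GAPDH covariate, 46 with the stromal covariate, 16 at 2-fold and 4 to 36 without single arrays; 1 rose with the GAPDH covariate. Under DMSO 1 member was called between genotypes with the stromal covariate. Fits with fewer arrays have fewer degrees of freedom. Without single arrays and with the stromal covariate, the share of all genes called lower moved in the same direction as the count that fell. Otherwise the cause was not tested. Of 66 differences of single genes that were followed, 1 changed sign with a call in either fit (Nrf1, called lower at -0.63 with the GAPDH covariate). Sign changes with a call in neither fit were not counted, such as that of Mrpl57, from -0.03 to 0.42 with the GAPDH covariate. Not all of the called differences passed whichever array was left out. The labels do not pair the arrays, and differences between arrays 1 and 2 correlated between groups at -0.11 to 0.71 over genes, so the numbers were not taken as pairs.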
